A study of Homo sapiens with 13 samples.

Results

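The genes described here are 55 genes of mitosis and of the spindle checkpoint in DLD-1, a human colorectal adenocarcinoma line. They were chosen by name, with kinesins left out, and all 55 were found among the 23886 gene symbols of each of 2 deposited comparison tables. In both tables all 55 had a mean normalised count of at least 10 over the libraries. The lowest and highest were 562 and 26888 normalised counts beside siSOX9, and 495 and 28514 beside siY14. Members were read in 8 groups by role: 10 genes of mitotic entry, 8 of the spindle checkpoint, 6 of anaphase and sister separation, 8 of the kinetochore and centromere, 4 of the chromosomal passenger complex, 7 of spindle assembly, 4 of the central spindle and cytokinesis, and 8 of condensin and the mitotic chromosome.

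Polyadenylated RNA was sequenced from 13 samples of cells that had received 50 nM of small interfering RNA (siRNA) 72 h before harvest. The siSOX9 table compared 4 samples with an siRNA against SOX9 and 3 samples with a control siRNA (siCtrl), from experiments 1 and 2. Experiment 1 gave 3 siSOX9 and 2 siCtrl samples, and experiment 2 gave 1 of each. The siY14 table compared 4 samples with siRNAs against Y14, namely 2 with siRNA 9 and 2 with siRNA 10 in 1 pooled arm, and 2 siCtrl samples, all from experiment 3. Y14 belongs to the core of the exon junction complex, the protein mark that splicing leaves on mRNA. The tables share no control sample and were normalised separately, so each comparison was made within its own table. The labels do not say whether samples of 1 experiment came from separate cultures, so p-values cover only sample-to-sample spread, whose source may be technical.

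At mitotic entry, cyclin B with CDK1 is switched on by CDC25 phosphatases and drives chromosome condensation and spindle assembly. The spindle checkpoint then holds the anaphase-promoting complex (APC/C) inactive until every kinetochore is attached to microtubules, after which separase cuts cohesin and the cell divides around the central spindle. Most of these genes are transcribed late in the cell cycle, under the MuvB complex with B-MYB and FOXM1, and colon tumour lines in culture express them at high levels. In bulk RNA, fewer cells in mitosis and less RNA per cell cannot be told apart.

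RefSeq promoters (GRCh38.p14, 250 bases before to 50 after the start) were matched for 46 of the 55 members. Members of this class often carry the cell cycle homology region, which the MuvB complex binds, and CCAAT boxes, which NF-Y binds. TTTGAA on either strand (TTCAAA on the other) stood in 30 of the 46 windows (65.2%), against 9.64% of the 9760 windows whose gene had a siY14 table mean of 10 or more and 15.4% of all 27305 windows. CCAAT on either strand (ATTGG on the other) stood in 35 of 46 (76.1%), against 36.5% and 35.7%. Both stood in 23 of 46 (50.0%), against 4.02% and 6.08%. These matches are letters in a window and not measured sites. Only exact matches were sought, and other forms of the cell cycle homology region were not. The 120 bases before the start are shown for 5 members that fell with siY14 and for SPC24, whose ratio was the highest, with every match to either motif in capitals. Overlapping matches were each counted.
PRC1 (chr15:90994536-90994655, minus strand): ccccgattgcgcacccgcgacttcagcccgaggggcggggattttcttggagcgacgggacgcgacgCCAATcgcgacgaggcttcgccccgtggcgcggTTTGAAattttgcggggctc
ASPM (chr1:197146670-197146789, minus strand): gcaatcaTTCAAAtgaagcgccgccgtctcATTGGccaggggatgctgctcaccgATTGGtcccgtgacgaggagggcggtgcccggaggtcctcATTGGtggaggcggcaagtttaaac
ANLN (chr7:36389742-36389861, plus strand): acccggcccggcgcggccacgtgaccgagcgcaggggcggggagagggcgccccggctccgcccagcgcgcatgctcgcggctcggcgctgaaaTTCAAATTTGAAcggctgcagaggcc
CKAP5 (chr11:46846281-46846400, minus strand): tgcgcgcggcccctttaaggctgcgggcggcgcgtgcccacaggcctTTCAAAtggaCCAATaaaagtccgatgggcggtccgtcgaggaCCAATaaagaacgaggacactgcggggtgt
BUB1 (chr2:110678064-110678183, minus strand): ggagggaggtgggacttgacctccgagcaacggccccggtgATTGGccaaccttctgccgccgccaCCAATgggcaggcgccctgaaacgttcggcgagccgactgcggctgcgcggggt
SPC24 (chr19:11155783-11155902, minus strand): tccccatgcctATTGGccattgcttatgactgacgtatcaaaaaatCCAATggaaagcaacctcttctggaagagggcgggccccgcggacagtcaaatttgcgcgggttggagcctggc
PRC1 held TTTGAA close to the start with CCAAT before it. ASPM held several CCAAT boxes, ANLN held adjoining matches to TTTGAA with no CCAAT in these bases, and BUB1 and SPC24 held CCAAT boxes but no TTTGAA. Over the 8 matched members that fell with siY14, 7 windows (87.5%) held TTTGAA and 5 (62.5%) held CCAAT. Over the 38 matched members that did not pass the test, 23 (60.5%) held TTTGAA and 30 (78.9%) held CCAAT.

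The deposited tables give a mean per arm and no value per library. Whole reads per library were recovered from the digits of the means. Both siCtrl arms were recovered for all 55 members. The treated arm was recovered for 23 members with siSOX9 and 33 with siY14. For 13 and 10 of these exactly 1 set of reads gave the printed values, and for 10 and 23 the set was chosen among several by a model of the spread, so their spread is partly built in. With siY14 the members with exactly 1 set were NUF2, NDC80, SPC24, SPC25, CENPA, CENPK, CDC25C, CDCA3, HMMR and SGOL1. With siSOX9 they were these less CDCA3, plus ZWILCH, SGOL2, NCAPH and CDCA2. Recovered libraries carry no sample name and are lettered by depth within each arm. Estimated library depths were 24.9 to 185 M counts for siSOX9 and its controls, and 45.7 to 72.8 M for siY14 and its controls. The knockdown of Y14 could not be checked, since both deposited tables list its gene, RBM8A, at 0. SOX9 fell from 24468 to 9067 normalised counts with siSOX9 (log2 -1.43, adjusted p 1.40e-04 in the authors' deposited table). Its siY14 ratio was -0.20 (adjusted p 0.545 in the authors' deposited table). Of the epithelial markers, EPCAM had authors' means of 25877 to 51818 over the arms. CDH1 fell with siY14 from 44973 to 19499 normalised counts (adjusted p 0.0282 in the authors' deposited table). VIL1 (villin) fell with siSOX9 from 4416 to 1930 (log2 -1.19, adjusted p 5.84e-08 in the authors' deposited table) and with siY14 (log2 -0.57, adjusted p 0.0187 in the authors' deposited table). KRT8, KRT18, KRT19, CDX1 and CDX2 passed the test in neither table, with KRT18 at -0.51 and KRT19 at -0.16 with siY14. CDX1 was nearly absent, with authors' means of at most 2.83 in any arm. The part of these markers in the results was not tested. Markers of immune, fibroblast and endothelial cells had authors' means of at most 103 in any arm, and PTPRC, the pan-leukocyte marker, of at most 0.629.

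With siY14, 10 of the 55 members fell and 0 rose at an adjusted p of at most 0.05 in the authors' deposited table (18.2% of members). Over all 17706 genes with reads 9.16% passed in either direction, 5.35% fell and 3.81% rose, and over genes with a mean of at least 10 12% passed and 7.01% fell. At an unadjusted p under 0.05, 24 members passed, all lower, against 22.5% of all genes in either direction and 11.9% lower. The siY14 libraries form pairs, as described below, so these p-values can be too small. The 10 were ASPM, CKAP5, SMC4, PRC1, KNTC1, BUB1, NUF2, RACGAP1, ANLN and TOP2A, from spindle pole, checkpoint, kinetochore, cytokinesis and condensin groups. The ratio was below 0 for 42 members and above 0 for 13. The median log2 ratio was -0.33 over members and -0.00126 over all genes, whose quartiles lay at -0.29 and 0.29. With siSOX9, 0 of the 55 members passed the test in the authors' deposited table, where 3.47% of 18747 genes did. At an unadjusted p under 0.05, 3 members passed, all higher, against 10.2% of all genes in either direction and 4.25% higher. DESeq was the submitters' tool for both tables. With siSOX9, 43 ratios lay above 0 and 12 below, with a median of 0.12 over members and 0.01 over all genes.

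**Figure D1:**
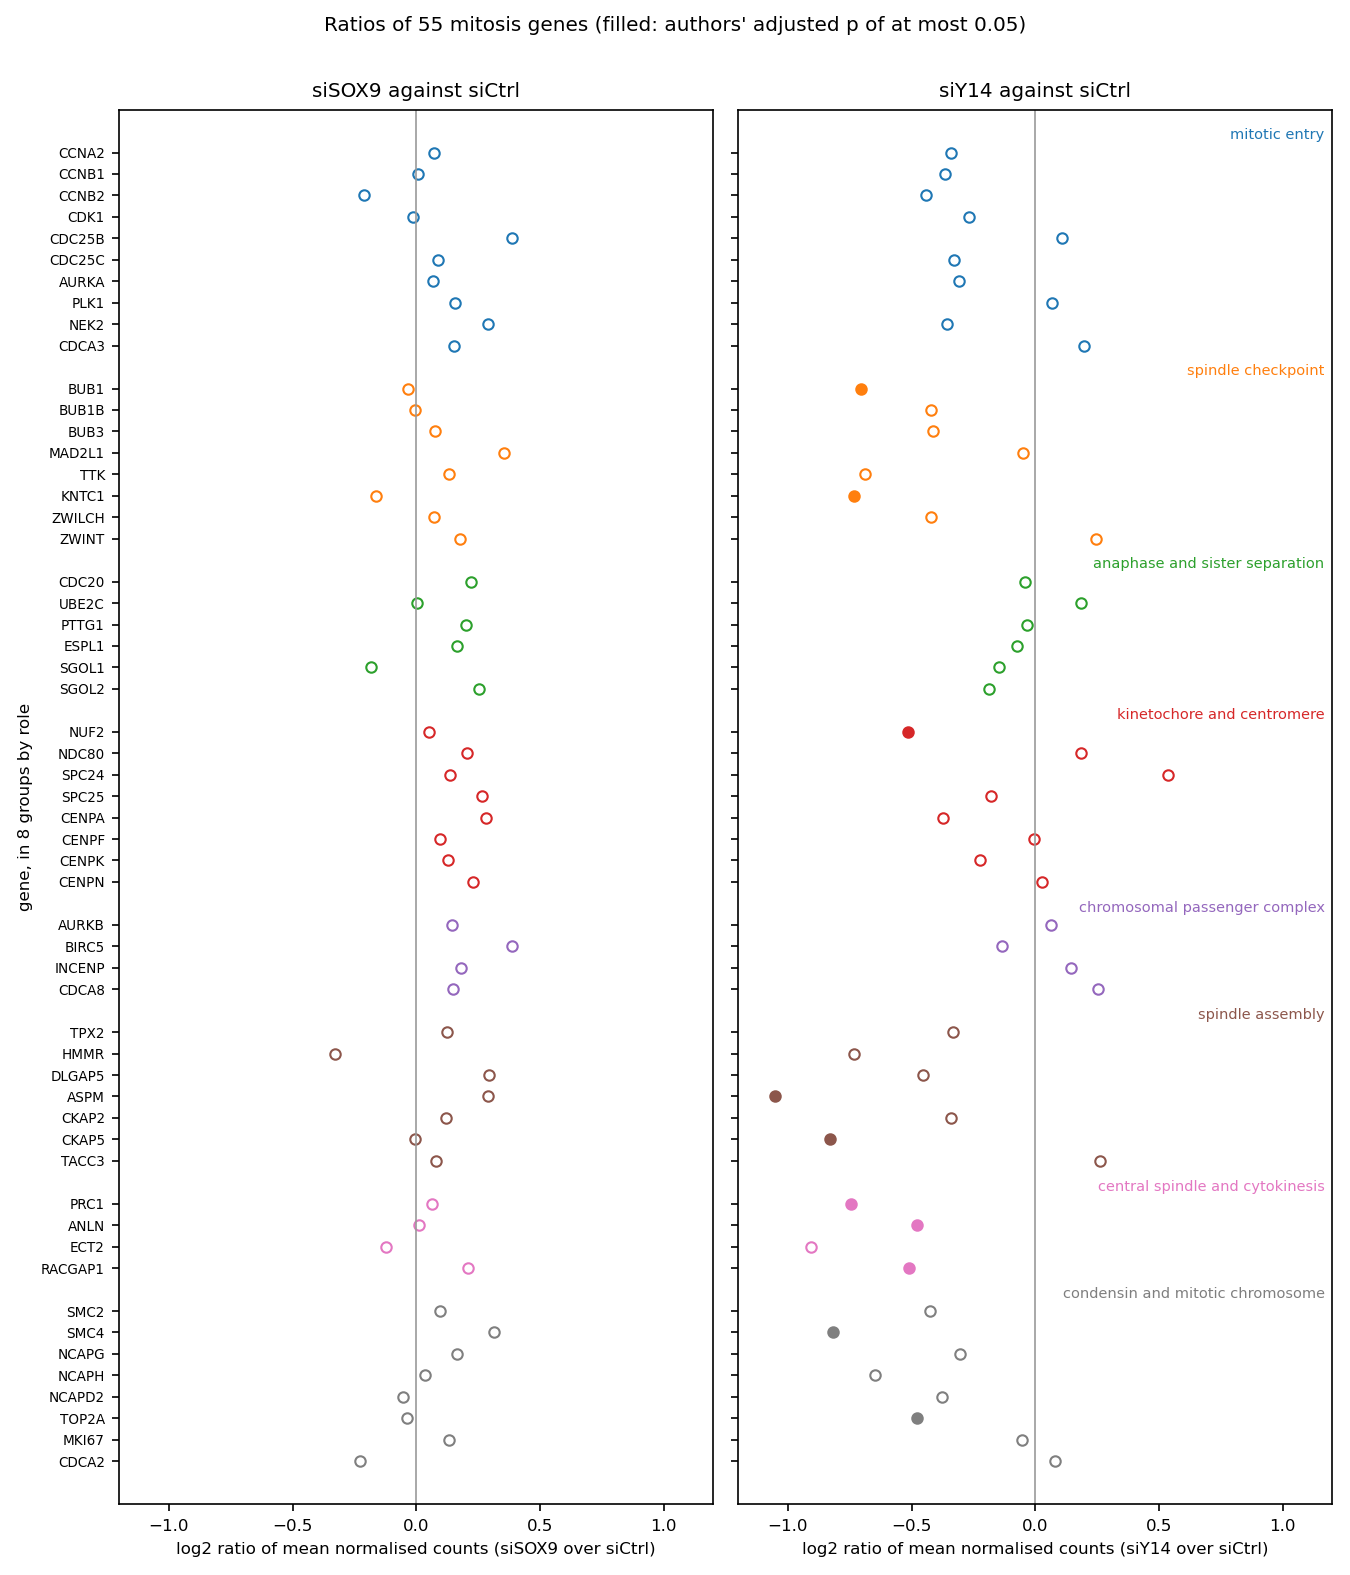
The log2 ratio of the authors' mean normalised counts is plotted for each of 55 members, by role, for siSOX9 over siCtrl (left) and siY14 over siCtrl (right), with filled points at an adjusted p of at most 0.05. No point is filled on the left, where ratios run from -0.33 to 0.39, and 10 are filled on the right, all below 0, where ratios run from -1.05 to 0.54.

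Among the 7 genes of spindle assembly, ASPM and CKAP5 fell with siY14. ASPM keeps microtubule minus ends focused at the spindle poles, and CKAP5 (ch-TOG) is a microtubule polymerase. ASPM read 7576 and 7552 normalised counts in the siCtrl libraries and 4326, 2969, 4260 and 3044 in siY14 libraries a to d. Every siY14 library lay below both siCtrl libraries, with b and d lowest. The log2 ratio was -1.05 (adjusted p 1.5e-07 in the authors' deposited table). It was the lowest of the 55 members, and 1.2% of all genes lay lower. CKAP5 read 19795 and 19778 in the siCtrl libraries against an authors' mean of 11128 with siY14 (log2 -0.83, adjusted p 0.0447 in the authors' deposited table). HMMR, which recruits TPX2 to the spindle, read 5277 and 4959 in siCtrl and 4336, 1889, 4267 and 1839 in siY14 libraries a to d. These groups did not overlap, but libraries b and d lay more than 2-fold below a and c, and HMMR missed the threshold (log2 -0.73, adjusted p 0.265 in the authors' deposited table). The ratio was -0.45 for DLGAP5, a kinetochore fibre stabiliser, -0.34 for CKAP2 and -0.33 for TPX2, an activator of Aurora A, with adjusted p-values of 0.0663, 0.21 and 0.216 in the authors' deposited table. TACC3, the partner of CKAP5 on spindle fibres, was the 1 member of the group above 0. It read 6087 and 6079 in siCtrl and 7370, 7082, 7359 and 7328 in siY14, which did not overlap (log2 0.26, adjusted p 0.406 in the authors' deposited table).

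All 4 genes of the central spindle and cytokinesis lay below 0 with siY14, and 3 passed the test. PRC1 bundles antiparallel microtubules of the midzone. It read 12702 and 12868 in siCtrl against an authors' mean of 7620 with siY14 (log2 -0.75, adjusted p 5.83e-04 in the authors' deposited table). RACGAP1, a subunit of centralspindlin, read 8302 and 8476 in siCtrl and 6070, 5691, 6076 and 5722 in siY14. All 4 libraries lay below siCtrl within a narrow range (log2 -0.51, adjusted p 0.033 in the authors' deposited table). That set of reads was chosen among several, so the narrow range is partly built in. ANLN, a scaffold of the contractile ring, fell from 19053 to 13666 (log2 -0.48, adjusted p 0.0475 in the authors' deposited table). ECT2 is an exchange factor needed for cleavage furrow formation. It read 24229 and 23790 in siCtrl against an authors' mean of 12796, a ratio further from 0 than that of PRC1, and missed the threshold (log2 -0.91, adjusted p 0.0517 in the authors' deposited table).

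In the spindle checkpoint group, 7 of 8 ratios lay below 0 with siY14 and 2 members passed the test. KNTC1 (ROD) belongs to the RZZ complex, which brings MAD proteins and dynein to kinetochores. It read 5523 and 5571 in siCtrl and 3761, 2949, 3747 and 2899 in siY14 libraries a to d. The groups did not overlap (log2 -0.73, adjusted p 9.6e-04 in the authors' deposited table). BUB1, a kinase that docks checkpoint proteins at the kinetochore, read 12477 and 12587 in siCtrl against an authors' mean of 7700 (log2 -0.70, adjusted p 0.0015 in the authors' deposited table). TTK (MPS1), the kinase that starts checkpoint signalling, read 6784 and 6427 in siCtrl and 5295, 2974, 5104 and 3040 in siY14. Its siY14 libraries b and d lay well below a and c (log2 -0.69, adjusted p 0.096 in the authors' deposited table).

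ZWILCH, the RZZ partner of KNTC1, read 6914 and 6774 in siCtrl and 6629, 3742, 6355 and 3690 in siY14. Libraries a and c lay just under siCtrl and libraries b and d far under it (log2 -0.42, adjusted p 0.454 in the authors' deposited table). BUB1B (BubR1), an inhibitor of the APC/C, had a ratio of -0.42, and BUB3, its binding partner, one of -0.41, with adjusted p-values of 0.096 and 0.123 in the authors' deposited table. MAD2L1 (MAD2), which binds and inhibits CDC20, read 7969 and 7983 in siCtrl and 8245, 7340, 8091 and 7195 in siY14, which overlapped (log2 -0.05). ZWINT, which links the RZZ complex to the kinetochore, had the 1 ratio above 0, at 0.25 (adjusted p 0.429 in the authors' deposited table).

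The 8 genes of the kinetochore and centromere were divided in sign. NUF2, NDC80, SPC24 and SPC25 together form the NDC80 complex, which holds microtubules at the kinetochore, and all 4 had exactly 1 set of reads. NUF2 read 3266 and 3230 in siCtrl and 2489, 2126, 2457 and 2035 in siY14, all below siCtrl, and it was the member of the group that passed the test (log2 -0.51, adjusted p 0.0355 in the authors' deposited table). NDC80 read 2434 and 2368 in siCtrl and 2610, 2908, 2636 and 2754 in siY14, all above siCtrl (log2 0.18, adjusted p 0.636 in the authors' deposited table). SPC24 read 400 and 362 in siCtrl and 443, 660, 442 and 666 in siY14, all above siCtrl and highest in libraries b and d. Its log2 ratio of 0.54 was the highest of the 55 members (adjusted p 0.295 in the authors' deposited table). SPC25 read 1451 and 1375 in siCtrl and 1292, 1197, 1246 and 1257 in siY14, all below siCtrl (log2 -0.18, adjusted p 0.616 in the authors' deposited table). Subunits of 1 complex lay on both sides of siCtrl. Over all 11600 recovered genes, 31.3% had every siY14 library above siCtrl and 32.1% had every one below. No test of the difference between these subunits was made.

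CENPA, the histone H3 variant that marks centromeres, read 1861 and 1821 in siCtrl and 1442, 1433, 1354 and 1461 in siY14. The siY14 libraries lay close together below siCtrl (log2 -0.37, adjusted p 0.165 in the authors' deposited table). CENPK read 2379 and 2363 in siCtrl and 1963, 2059, 2057 and 2044 in siY14 (log2 -0.22). CENPN, a reader of CENPA nucleosomes, overlapped siCtrl with a ratio of 0.03, and CENPF, which peaks in G2 and mitosis, had a ratio of -0.00654.

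The 5 condensin members lay below 0 with siY14, and SMC4 passed the test. SMC4 and SMC2 are the ATPase core of condensin, and NCAPG, NCAPH and NCAPD2 are the other subunits of condensin I. SMC4 read 21902 and 21073 in siCtrl against an authors' mean of 12195 (log2 -0.82, adjusted p 1.14e-04 in the authors' deposited table). SMC2 had a ratio of -0.43 and NCAPD2 one of -0.38, with adjusted p-values of 0.15 and 0.138 in the authors' deposited table. NCAPH, the kleisin, read 6364 and 6356 in siCtrl and 4931, 3172, 5068 and 3090 in siY14, with all 4 below siCtrl and b and d lowest (log2 -0.65, adjusted p 0.0678 in the authors' deposited table). NCAPG read 8876 and 8658 in siCtrl and 7788, 6445, 7874 and 6319 in siY14 (log2 -0.30, adjusted p 0.27 in the authors' deposited table). TOP2A, the topoisomerase that untangles sister chromatids, fell from 35089 to 25227 (log2 -0.48, adjusted p 0.048 in the authors' deposited table). MKI67 coats mitotic chromosomes and is the common proliferation marker. It read 27568 and 26889 in siCtrl against an authors' mean of 26274 (log2 -0.05), and CDCA2, a phosphatase subunit of mitotic exit, had a ratio of 0.08.

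In mitotic entry, 7 of 10 ratios lay below 0 with siY14 and no member passed the test in the authors' deposited table. CCNB2, a cyclin B, had the largest ratio of the group at -0.44, with siCtrl libraries at 8080 and 7856, and an authors' siY14 mean of 5863 (adjusted p 0.353 in the authors' deposited table). CCNB1 had a ratio of -0.37, NEK2 -0.36, CCNA2 -0.34, CDC25C -0.33, AURKA -0.31 and CDK1 -0.27. NEK2, a kinase that separates centrosomes, read 4721 and 4521 in siCtrl and 3764, 3475, 3698 and 3484 in siY14, which did not overlap. CDC25C, a phosphatase that activates CDK1, read 1685 and 1562 in siCtrl and 1313, 1264, 1314 and 1285 in siY14, also without overlap. PLK1, CDC25B and CDCA3 lay above 0, at 0.07, 0.11 and 0.20.

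Genes of anaphase and of the chromosomal passenger complex lay near 0 with siY14. Among the 6 genes of anaphase, ratios ran from -0.19 for SGOL2, a protector of centromeric cohesin, to 0.19 for UBE2C, the conjugating enzyme of the APC/C. CDC20, the APC/C activator, PTTG1 (securin) and ESPL1 (separase) had ratios of -0.04, -0.03 and -0.07. SGOL1 read 2822 and 2806 in siCtrl and 2924, 2140, 2918 and 2192 in siY14, so that libraries a and c lay above siCtrl and b and d below it (log2 -0.15). AURKB, the kinase of the passenger complex, had a ratio of 0.07, INCENP 0.15, CDCA8 (borealin) 0.25 and BIRC5 (survivin) -0.13. The lowest adjusted p of the 4 was 0.419 in the authors' deposited table.

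The 4 siY14 libraries fell into pairs. Over 4800 genes with exactly 1 set of reads and a mean of at least 500, the median absolute log2 difference was 0.038 between libraries a and c and 0.0394 between b and d, and 0.259 to 0.273 between libraries of different pairs. Each siRNA had 2 samples, but which siRNA a pair belongs to, if any, could not be told. Libraries b and d were lower than a and c for 23 of the 33 recovered members and higher for 10. Of these members 12 (36.4%) differed by over 0.25 on the log2 scale, 11 of them lower in b and d, against 52.2% of all 11600 recovered genes, of which 2773 were lower and 3284 higher. Among the 10 members with exactly 1 set of reads, 5 were lower and 5 higher in b and d, and 3 differed by over 0.25: HMMR at -1.21, SGOL1 at -0.43 and SPC24 at 0.58. At any size, 5456 of the 11600 genes were lower and 6144 higher in b and d. The median member lay at -0.16 against siCtrl in libraries a and c and at -0.34 in b and d, and 21 and 23 of 33 members lay below the siCtrl mean. Over all 11600 recovered genes these medians were -0.00656 and 0.00905, with 5890 and 5718 genes below. Among the 10 members with exactly 1 set of reads they were -0.20 and -0.28, with 6 and 7 below. The median log2 difference of b and d from a and c was -0.10 over the 33 members and -0.00709 over these 10.

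**Figure D2:**
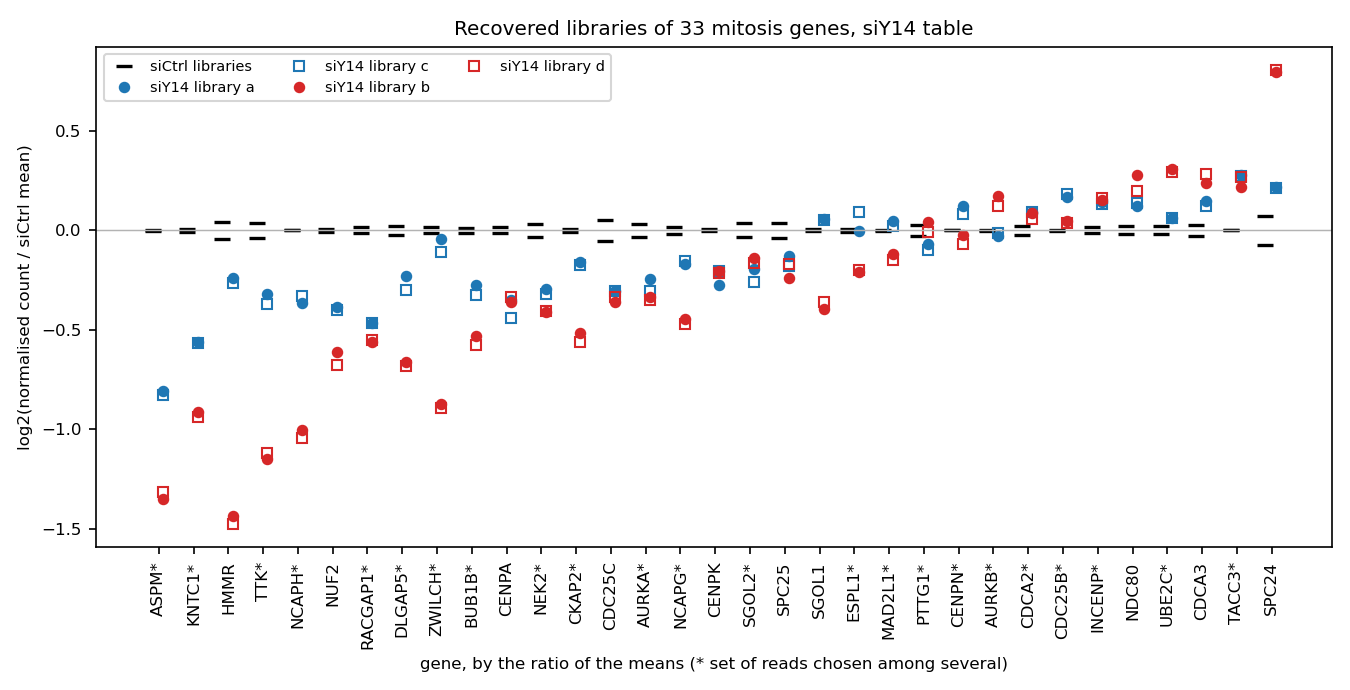
The log2 ratio of each recovered library to the siCtrl mean is plotted for 33 members of the siY14 table, with siCtrl libraries as bars, libraries a and c in blue and b and d in red. Blue and red points separate for HMMR, TTK, ZWILCH and NCAPH and coincide for RACGAP1, CENPA and TACC3.

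Of the 33 recovered members, 19 had every siY14 library below both siCtrl libraries, 8 had every one above and 6 overlapped. The same read over all 11600 recovered genes gave 32.1% below, 31.3% above and 63.3% without overlap in either direction. A limma-voom fit of the recovered reads called 11 of 33 members at an adjusted p of at most 0.05, 10 lower and 1 higher, where 26.1% of 11600 genes were called, 13.4% lower and 12.7% higher. The 10 lower were ASPM, KNTC1, NUF2, RACGAP1, BUB1B, CENPA, NEK2, CDC25C, AURKA and CENPK, and the 1 higher was TACC3. TACC3 had a log2 difference of 0.26 ± 0.04 (SE) with a limma adjusted p of 0.014, and RACGAP1 one of -0.51 ± 0.05 with a limma adjusted p of 0.00533. Because the siY14 libraries form pairs, they are not 4 independent samples and these p-values can be too small. The authors' p-values for siY14 rest on the same 4 libraries and can be too small for the same reason. In ASPM, KNTC1, RACGAP1, BUB1B, NEK2, AURKA and TACC3 the set of reads was chosen among several by the model of the spread. Their SE and limma p-values rest partly on that model. Without siCtrl library a, 0 of the 33 were called and 1 of 11600 genes was (0.00862%). Without siCtrl library b, 0 were called and 3 genes were (0.0259%), so the limma calls needed both siCtrl libraries.

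The siY14 ratios of members varied with the structure of the transcript. Exon number, length and GC content came from 1 GENCODE 29 transcript per gene, found for all 55 members. Spearman's rho between the log2 ratio and exon number was -0.54 over 55 members and -0.18 over 11811 genes. KNTC1, with 64 exons, CKAP5, with 44, and TOP2A, with 35, were among the 10 members that fell, and SPC24, MAD2L1, PTTG1 and CENPA have 5 exons each and ratios from -0.37 to 0.54. Exceptions were ESPL1, with 31 exons and a ratio of -0.07, and CENPF, with 20 exons and a ratio of -0.00654. With GC content, rho was 0.57 over members and 0.49 over all genes. Members have a median GC content of 43.2% and 15 exons, against 49.2% and 9 over all genes of that table. These rhos are across genes that share libraries and are not independent replicates.

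When each ratio was taken against the median of genes of like GC content and transcript length, the median of members was -0.14 in place of -0.33, and 42 members still lay below 0. ASPM was at -0.70, PRC1 at -0.70, CKAP5 at -0.66, ECT2 at -0.56 and BUB1 at -0.53 on that scale. Of the other members that fell, SMC4 moved from -0.82 to -0.46, KNTC1 from -0.73 to -0.45, NUF2 from -0.51 to -0.30 and RACGAP1 from -0.51 to -0.38, and ANLN and TOP2A from -0.48 to -0.19. SMC2 and NCAPG were at -0.07 and -0.02. The median of the kinetochore group turned from -0.09 to 0.04 and that of the passenger complex from 0.11 to -0.10. SGOL2 moved from -0.19 to 0.12. After the centring, rho over members was -0.47 with exon number, -0.21 with transcript length and 0.13 with GC content. GC content and length are what the centring takes out, and exon number is not. The part of GC content, length and exon number in these ratios was not tested. In the siSOX9 table, rho over members before centring was -0.28 with exon number and 0.15 with GC content.

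**Figure D3:**
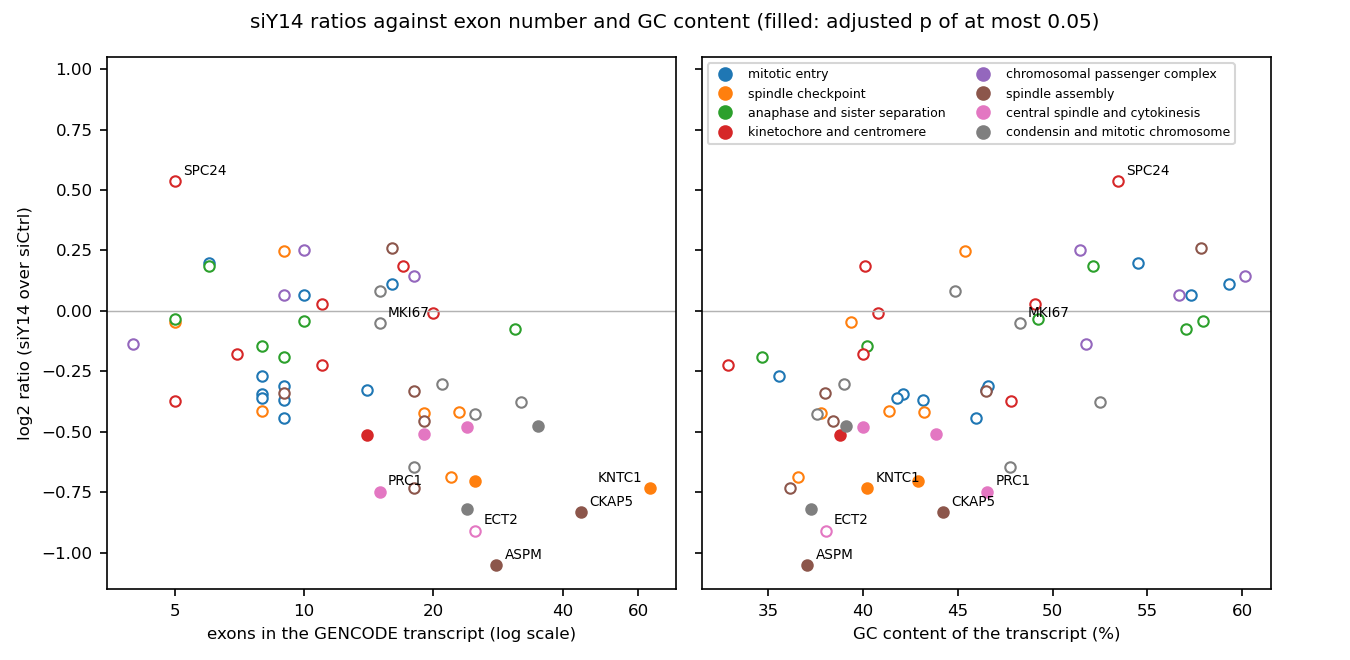
The siY14 log2 ratio of each member is plotted against the exon number of its transcript (left, log scale) and its GC content in percent (right), coloured by role, with filled points at an adjusted p of at most 0.05. Filled points lie at 14 or more exons and below 50% GC, with KNTC1 at 64 exons and ASPM at 37.1% GC.

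With siSOX9 the ratios of the 55 members were small. The lowest adjusted p was 0.375, for MAD2L1, in the authors' deposited table. MAD2L1 read 5168, 4509 and 4830 in the siCtrl libraries against an authors' siSOX9 mean of 6188 (log2 0.36). CDC25B, a phosphatase that activates cyclin-CDK complexes, read 8660, 9330 and 9418 in siCtrl against an authors' mean of 11955 (log2 0.39, adjusted p 0.467 in the authors' deposited table). BIRC5 read 8026, 6902 and 7467 in siCtrl against an authors' mean of 9755 (log2 0.39, adjusted p 0.474 in the authors' deposited table). These 3 are the members with an unadjusted p under 0.05. All 8 genes of the kinetochore and centromere and all 4 of the passenger complex had ratios above 0, from 0.05 for NUF2 to 0.39 for BIRC5, and none passed the test in the authors' deposited table.

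In 7 of the 8 groups the siSOX9 ratio furthest from 0 was positive, and HMMR was the exception. HMMR read 4757, 4415 and 4735 in siCtrl and 4033, 3533, 3248 and 3937 in siSOX9. Every siSOX9 library lay below every siCtrl library (log2 -0.33, adjusted p 0.761 in the authors' deposited table). NEK2 read 3850, 3941 and 4253 in siCtrl and 4835, 4734, 4708 and 5377 in siSOX9, all above siCtrl (log2 0.29, adjusted p 0.642 in the authors' deposited table). CENPA read 1294, 1510 and 1617 in siCtrl and 1556, 1959, 1857 and 1797 in siSOX9, which overlapped (log2 0.28, adjusted p 0.772 in the authors' deposited table). SGOL2 read 2784, 2159 and 2499 in siCtrl and 3469, 2628, 2625 and 3092 in siSOX9, which overlapped too (log2 0.25, adjusted p 0.881 in the authors' deposited table). SMC4 had a ratio of 0.32 and RACGAP1 one of 0.21, the largest of their groups, with adjusted p-values of 0.591 and 1 in the authors' deposited table. Of the 23 recovered members, 3 had every siSOX9 library above siCtrl (NEK2, ESPL1 and CDCA8), 2 had every one below (HMMR and SGOL1) and 18 overlapped. Over all 11353 recovered genes 13% lay above, 14.9% below and 27.9% did not overlap in either direction.

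The deepest library of each arm stood apart for several members of the siSOX9 table. CDK1 read 7265 in siCtrl library a and 5225 and 5223 in b and c, and it read 7633 in siSOX9 library a and 5267, 5028 and 5471 in the others. ZWILCH read 5304, 3441 and 3936 in siCtrl and 5691, 3661, 4167 and 4246 in siSOX9. In both genes the spread within an arm followed the library and was larger than the difference between arms. CDCA2 and CENPK followed the same pattern, and PLK1 was lower in siCtrl library a (9201, against 13168 and 13260). Which experiment the deepest libraries came from could not be told. A limma-voom fit called 2 of the 23 recovered members, NEK2 higher (log2 0.30 ± 0.07 SE, limma adjusted p 0.0256) and HMMR lower (log2 -0.32 ± 0.09, limma adjusted p 0.0376), where 16% of 11353 genes were called. Without both deepest libraries, a choice made after seeing the data, 13 of 23 were called, 9 higher and 4 lower, where 30.8% of genes were (13.9% higher, 16.9% lower). With the deepest library of each arm as a block, also chosen after seeing the data, 15 of 23 were called, 11 higher and 4 lower. Under that block 49% of genes were called (24.5% higher, 24.4% lower). The median ratio of the 23 was 0.13 without the deepest libraries and 0.11 between the deepest libraries alone.

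**Figure D4:**
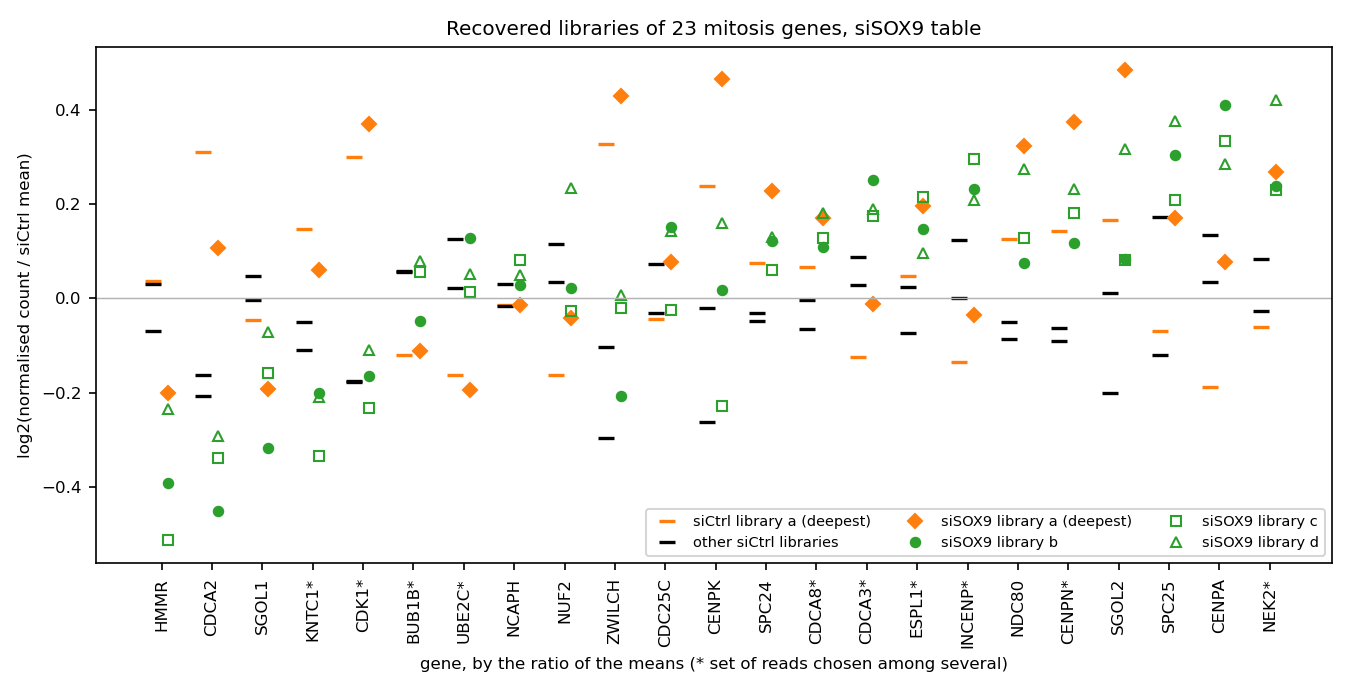
The log2 ratio of each recovered library to the siCtrl mean is plotted for 23 members of the siSOX9 table, with siCtrl libraries as bars and siSOX9 libraries as points, and the deepest library of each arm in orange. The orange marks lie together above the others for CDK1, ZWILCH, CENPK and CDCA2, and siSOX9 points lie below every bar for HMMR and SGOL1.

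Set side by side, 31 members had a ratio above 0 with siSOX9 and below 0 with siY14, 12 lay above 0 in both tables, 11 lay below 0 in both and 1 lay below 0 with siSOX9 and above 0 with siY14. The last was CDCA2. ASPM was at 0.29 with siSOX9 and -1.05 with siY14, SMC4 at 0.32 and -0.82, PRC1 at 0.06 and -0.75, and CKAP5 at -0.00698 and -0.83. HMMR lay below 0 in both, at -0.33 and -0.73. The difference between the tables was not tested, because they were normalised separately. With 43 members above 0 with siSOX9 and 42 below 0 with siY14, a large class of opposite sign follows from these counts alone. The classes were not counted over all genes, and 0 members passed the test with siSOX9 in the authors' deposited table.

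Other mitosis genes from 7 further lists were read in the same way, 103 of 109 with reads and all 103 with a mean of at least 10. With siY14, 10 of the 103 fell and 4 rose at an adjusted p of at most 0.05 in the authors' deposited table, with a median ratio of -0.10, where 7.01% of all genes with a mean of at least 10 fell and 4.99% rose. Those with the largest falls were PDS5A, a regulator of cohesin (log2 -0.94), DEPDC1 (-0.75) and SPAG5 (astrin, a spindle protein, -0.72), with adjusted p-values of 0.00918, 6.12e-04 and 0.0011 in the authors' deposited table. Those with the largest rises were PKMYT1, the kinase that holds CDK1 inactive (0.87), CENPM (0.76) and FZR1, the APC/C activator of G1 (0.74), with adjusted p-values of 0.0457, 0.0355 and 0.0282 in the authors' deposited table. Against genes of like GC content and transcript length, the median over these lists was 0.00839. On that scale PKMYT1 was at 0.38, CENPM at 0.50 and FZR1 at 0.36, and PDS5A at -0.66, DEPDC1 at -0.40 and SPAG5 at -0.71. PKMYT1 read 1817 and 1810 in siCtrl and 2702, 4032, 2663 and 3880 in siY14, highest in libraries b and d. Of 16 APC/C genes 3 fell and 2 rose, of 26 other kinetochore genes 2 fell and 1 rose, and of 12 cohesin genes 1 fell. Of the condensin II subunits, NCAPD3 was at -0.50 and NCAPH2 at 0.47, and 1 of the 3 in the list, NCAPD3, passed the test in the authors' deposited table. With siSOX9, 1 of the 103 fell and 0 rose in the authors' deposited table, where 4.69% passed in either direction over all genes at that minimum mean. It was ITGB3BP (CENP-R), which read 1722, 1566 and 1627 in siCtrl and 1167, 977, 888 and 1057 in siSOX9, without overlap (log2 -0.68, adjusted p 0.0268 in the authors' deposited table).

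The transcription factors that drive these genes did not pass the test in either table. FOXM1 had log2 ratios of 0.29 with siSOX9 and 0.17 with siY14, and MYBL2 (B-MYB) 0.12 and 0.31. With siY14, the MuvB subunits LIN9, LIN37, LIN52 and LIN54 had ratios of 0.11, 0.23, 0.39 and -0.22. LIN9, LIN37 and LIN52 were highest in libraries b and d, and LIN54 lay below siCtrl in every library. LIN52 read 944 and 957 in siCtrl and 990, 1497, 988 and 1490 in siY14 libraries a to d. With a siY14 ratio of -0.71, RBL2 (p130) was the 1 gene of 13 in that list that passed the test in the authors' deposited table. CDKN1A (p21), an inhibitor of cyclin-dependent kinases, read 604, 719 and 737 in siCtrl and 805, 984, 940 and 982 in siSOX9, without overlap, and missed the threshold (log2 0.43, adjusted p 0.31 in the authors' deposited table). With siY14 CDKN1A was at -0.18, reading 724 and 790 in siCtrl and 576, 784, 515 and 792 in libraries a to d. Of 37 genes of DNA replication and S phase, 2 fell and 2 rose with siY14 and 0 fell and 1 rose with siSOX9 in the authors' deposited table, with median ratios of -0.03 and 0.02. With siY14 the shares over all genes were 7.01% lower and 4.99% higher, as above.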

How the data were processed

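RNA-seq of 13 DLD-1 samples was deposited as 2 comparison tables. The submitters' processing notes name DESeq, HTSeq, TopHat2, HISAT2, Bowtie and SAMtools, and the build hg19. For versions, settings and strand-aware counting, the sources used here give nothing. The authors deposited, per the file headers, 1 overall mean and 1 mean for each arm as a signal, made by scaling each library's read counts by its size factor. Further deposited columns are the fold change, a ratio of means, the log2 of that ratio, and the authors' p-value with its adjusted p-value. Columns of single-sample values that were not used numbered 0.

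The main values are log2 of the ratio of the authors' arm means, with no pseudocount, and the authors' adjusted p with a threshold of 0.05. Whole reads per library were recovered from the 15 printed digits of the arm means by lattice reduction. A set was kept where it was the 1 set within 0.5 to 2 times the arm mean that gave all printed values, or where a multivariate t model (4 degrees of freedom), trained on genes with exactly 1 set and a mean of 1000 to 3000, gave it a probability of at least 0.99. The steps were tested on simulated data. Members with high means were recovered less often. Where the overall mean was 10 or more, recovered reads went into limma-voom (limma 3.58.1, R 4.3.3). Library sizes followed the size factors and p-values were adjusted by Benjamini-Hochberg. GC and length centring took the median of genes in 10 GC bins by 3 length bins of GENCODE 29 transcripts. Promoters were the first entry per symbol of the RefSeq table.

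Full values are given for members that passed the test, in the table where they passed, and, per group and table, for most members with the largest ratio. SGOL2 and CDCA8 with siY14, and SMC4 and RACGAP1 with siSOX9, are given without counts. In the other lists, up to 3 genes per direction that passed and 7 regulators chosen by name were given. RBL2, and other members given as examples, were chosen after their values were seen. The members and lists were chosen with earlier results of these data known. Alternatives were another threshold, adjustment over fewer genes, pseudocounts of 1 and 10, other minimum means, centring, limma-voom, leaving out each library and, added after seeing the data, GC and length centring and leaving out or blocking on the deepest siSOX9-table libraries.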

Additional observations from a re-analysis of the deposited data

Results flagged for a closer look

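Among 56 groups of 4 treated libraries (23 members with siSOX9 and 33 with siY14), 4 held a library whose gap to the nearest of the others was above Dixon's 95% value for the range of the group. Chance flags about 1 in 20 groups where the 4 values are independent and normally distributed. The siY14 libraries form pairs, and many sets of reads were chosen by the model of the spread, so that rate need not hold here. CDK1 read 7633 normalised counts in siSOX9 library a, against 5028 to 5471 in the other 3 libraries. CENPK read 1963 in siY14 library a, against 2044 to 2059 in the others. TACC3 read 7082 in siY14 library b, against 7328 to 7370. CDCA2 read 5704 in siY14 library d, against 5834 to 5848. In CENPK, TACC3 and CDCA2 all 4 libraries lay close together. In CDK1, TACC3 and CDCA2 the set of reads was chosen among several, and in CENPK exactly 1 set gave the printed values.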

How the results depend on the processing

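With siSOX9, 0 members were called at a threshold of 0.1 (4.45% of all genes) and with p adjusted over genes whose mean was 10 or more (5.22%), and 2 of 23 by limma-voom. Leaving out 1 library gave 0 to 4 by limma-voom (9.87% to 20.3% of genes), leaving out both deepest libraries gave 13 and a block for the deepest libraries gave 15 (49% of genes). With siY14, the count was 15 at a threshold of 0.1 (13.7% of all genes), 11 with p adjusted over genes whose mean was 10 or more (13.8%) and 11 by limma-voom. Leaving out 1 siY14 library gave 9 to 15 (12.6% to 31.2% of genes), and leaving out either siCtrl library gave 0, where the lone siCtrl sample is assumed to vary like the siY14 arm. The cause was not tested. The median log2 ratio of members changed with siY14 only under GC and length centring, to -0.14. It moved by less than the spread between libraries with siSOX9, and under the other minimum means, pseudocounts and centring with siY14. The median of recovered members ran from 0.07 to 0.16 with siSOX9 and from -0.23 to -0.22 with siY14 when 1 library was left out. It was 0.09 and -0.20 over members with exactly 1 set of reads. Of the named members, SGOL2 with siY14 turned from -0.19 to 0.12 under GC and length centring. No paired analysis was possible because the deposited columns are arm means and the recovered libraries carry no sample number to pair by. The block used with siSOX9 was set by depth alone, not by sample or experiment. Depth limits the recovery of members with high means, whose libraries in the treated arm were not analysed here.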
